A study of Mus musculus with 7 samples.

Results

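The 9 genes Lif, Il6st, Jak2, Stat3, Stat5a, Stat5b, Stat6, Socs1 and Socs3 encode a cytokine of the JAK-STAT pathway, a receptor chain, a kinase, 4 transcription factors and 2 inhibitors. They were followed through the PU.1 and MITF peaks that lie in each gene or within 50 kb of either end on the mm9 build, judged by the center of the peak. Of the 22225 protein-coding genes of the annotation these are 9, and their windows held 114 of 76243 PU.1 peaks in MPs, 113 of 71941 after 36 h of RANKL and 110 of 77072 in OCs. MITF gave 9 of 5413 peaks in MPs, 3 of 3540 after 36 h and 4 of 4443 in OCs. A peak that lies in the windows of several members was counted once.

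In the JAK-STAT pathway a cytokine brings receptor chains together, the Janus kinases bound to the receptors phosphorylate STAT proteins, and the STATs move to the nucleus and bind DNA. SOCS proteins are induced by STATs and shut the receptor complex down, which makes the pathway a feedback loop. In bone, cytokines that use gp130 act on both bone-forming and bone-resorbing cells. PU.1 is an ETS-family factor that the myeloid lineage needs, and MITF binds DNA as a pair through a helix-loop-helix domain, recognizes E-boxes and acts at osteoclast genes.

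In ChIP-Seq an antibody pulls down the DNA that a protein sits on, this DNA is sequenced, and positions with many sequenced fragments (tags) are listed as peaks. Bone marrow myeloid cells of C57BLACK6 mice aged 4 to 6 weeks were grown for 3 days in 50 ng/ml recombinant human CSF1 to give myeloid precursors (MPs). MPs were collected as such or were given 100 ng/ml RANKL, the cytokine that drives osteoclast formation, for 36 h or for 72 h (OCs). CSF1 was kept at 50 ng/ml during the RANKL treatment. Chromatin was precipitated with 5 µg of a PU.1 or an MITF antibody at each of these 3 stages, and with non-specific IgG in MPs. The labels name no deletion or transgene in any of these libraries. The cells are marrow cultures, and a peak can come from any cell in the dish.

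Each of the 7 conditions has 1 library and none has a replicate, so every difference between times is a difference between 2 libraries, and the intervals given cover counting error only. The Peak Score of the lists is the number of tags in a peak scaled to a common library size. A tag was worth between 1.468 and 1.706 score units in the PU.1 libraries and between 0.9734 and 1.142 in the MITF libraries, which implies 5860000 to 6810000 and 8760000 to 10270000 tags per library if the default scale of 10000000 tags was used. The lowest listed scores were 10.2 to 10.3 for PU.1 and 9.1 to 9.7 for MITF, so a site without a peak may still carry tags below these limits. Peak centers within a list lay at least 370 bp apart, so a site close to a listed peak may have none of its own. IgG gave 349 peaks, with 0 in the windows of the 9 genes. Its lowest listed score was 22.4, from an implied 3120000 tags on the same scale, and it was made in MPs only. Of the MITF peaks at the 9 genes only that of Stat3 after 36 h (34.1) scored above this limit, so the lack of IgG peaks does not bear on the others. As a check of the cell labels, PU.1 peaks numbered 8.79 to 19.7 per 100 kb of window over 5 myeloid genes (Csf1r, Itgam, Lyz2, Fcgr3 and Cd14), 5.5 to 11.8 at the osteoclast genes Acp5 and Ctsk and 2.71 to 6.91 over 4 genes of other cells (Cd3e, Alb, Col1a1 and Epcam). These ranges pool the 3 PU.1 libraries and do not tell the stages apart: in MPs, after 36 h and in OCs Acp5 had 10, 6 and 8 peaks and Ctsk 13, 12 and 13. Col1a1, the collagen gene of bone-forming cells, still had a PU.1 peak of 220.0 in its window in MPs, and Epcam 1 of 155.2.

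The sequences under 9 of the 11 sites where MITF lay on PU.1 are shown because they include the highest PU.1 site at 7 of the 9 genes, and a Socs1 site without MITF stands beside them. They are the 151 bases of the PU.1 OC peak on the plus strand of mm9, and distances are from the annotated start of the gene to the PU.1 site, negative upstream. Capitals mark GGAAGT, a longer form of the ETS core GGAA, and the E-box cores CACGTG and CATGTG on either strand.
Lif site at 39629 bp, chr11:4197084-4197234: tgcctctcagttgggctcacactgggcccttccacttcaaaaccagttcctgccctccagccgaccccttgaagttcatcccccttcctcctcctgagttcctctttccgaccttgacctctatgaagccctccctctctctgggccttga
Il6st site at 35636 bp, chr13:113300780-113300930: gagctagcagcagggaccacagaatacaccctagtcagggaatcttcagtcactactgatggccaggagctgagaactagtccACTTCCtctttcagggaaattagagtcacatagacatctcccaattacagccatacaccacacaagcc
Jak2 site at -41730 bp, chr19:29284515-29284665: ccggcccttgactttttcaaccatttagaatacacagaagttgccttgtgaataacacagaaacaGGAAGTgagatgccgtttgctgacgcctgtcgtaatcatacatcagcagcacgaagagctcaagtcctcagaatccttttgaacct
Stat3 site at 11958 bp, chr11:100788816-100788966: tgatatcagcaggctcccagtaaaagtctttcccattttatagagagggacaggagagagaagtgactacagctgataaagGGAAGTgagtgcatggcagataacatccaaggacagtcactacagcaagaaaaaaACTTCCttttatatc
Stat5b site at 23935 bp, chr11:100688029-100688179: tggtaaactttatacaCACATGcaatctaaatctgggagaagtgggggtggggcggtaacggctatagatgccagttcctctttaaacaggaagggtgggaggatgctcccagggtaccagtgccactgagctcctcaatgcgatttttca
Stat6 site at -10869 bp, chr10:127069098-127069248: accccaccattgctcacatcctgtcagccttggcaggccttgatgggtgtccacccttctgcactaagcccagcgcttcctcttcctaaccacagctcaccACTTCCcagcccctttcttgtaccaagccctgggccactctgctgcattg
Stat6 site at -457 bp, chr10:127079516-127079666: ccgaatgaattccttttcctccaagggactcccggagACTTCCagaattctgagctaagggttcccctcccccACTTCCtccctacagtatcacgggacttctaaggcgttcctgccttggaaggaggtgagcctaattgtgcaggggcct
Socs3 site at -21906 bp, chr11:117853186-117853336: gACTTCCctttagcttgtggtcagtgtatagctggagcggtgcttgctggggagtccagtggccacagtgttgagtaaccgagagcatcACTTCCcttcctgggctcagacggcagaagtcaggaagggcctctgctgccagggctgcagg
Socs3 site at 23229 bp, chr11:117808057-117808207: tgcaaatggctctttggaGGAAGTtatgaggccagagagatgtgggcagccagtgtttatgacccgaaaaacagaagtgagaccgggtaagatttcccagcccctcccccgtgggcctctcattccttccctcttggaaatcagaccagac
Socs1 site at 2581 bp, without MITF, chr16:10782926-10783076: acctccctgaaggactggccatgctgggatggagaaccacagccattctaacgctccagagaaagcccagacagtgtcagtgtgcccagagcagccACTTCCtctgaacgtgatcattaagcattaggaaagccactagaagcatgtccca
Read in this way, the Stat3 site and the Socs3 site at -21906 bp held 2 copies of GGAAGT each, as did the Stat6 site beside the start. The Lif and Stat5b sites held no GGAAGT, but both hold the shorter core GGAA, which was not marked. The Stat5b site carried CATGTG, and CACGTG was found in 0 of the sites printed.

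PU.1 was listed at all 9 genes in all 3 libraries, and over all protein-coding genes 83.8% in MPs, 83.3% after 36 h and 83.8% in OCs had a PU.1 peak in the same window. The members had 9 to 23 peaks per gene in MPs, 10 to 21 after 36 h and 10 to 19 in OCs. The median was 13, 14 and 14 peaks, against 6 in each list over all protein-coding genes with windows drawn in the same way. Per 100 kb of window the medians were 10.3, 10.8 and 10.6 peaks for the members and 4.72, 4.64 and 4.85 for all genes. Socs3 was the densest, with 22.1 peaks per 100 kb in MPs, 20.2 after 36 h and 18.3 in OCs. In OCs 99.4% of genes had a lower density than Socs3. Its window also covers Pgs1, and Socs3 has the nearest coding start for 13 of its 27 sites. Stat6 followed with 17.8, 14.4 and 16.1. Lif had 13, 11.3 and 13, and Il6st stood beside it after 36 h with 11.4. Jak2 was the sparsest in OCs, with 6.2 per 100 kb, and 60.5% of genes lay below it. Neighbours in the order between these ends, such as Stat5a (10.3 in OCs), Il6st (10.6) and Socs1 (10.8), differ by less than 1 peak per 100 kb and cannot be ranked without replicates.

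**Figure D1:**
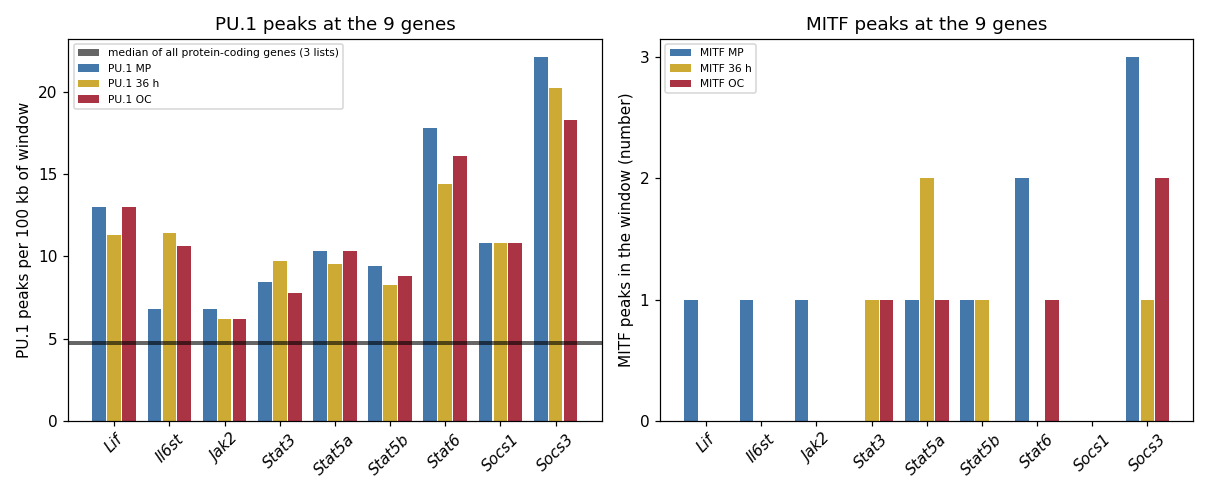
Left, PU.1 peaks per 100 kb of window at each of the 9 genes in MPs, after 36 h of RANKL and in OCs, with the median of all protein-coding genes as a dark band; right, the number of MITF peaks in each window. Every PU.1 bar stands above the band (4.64 to 4.85), Socs3 reaches 22.1, and MITF has at most 3 peaks at any gene and 0 at Socs1.

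MITF had a peak at 7 of the 9 genes in MPs, at 4 after 36 h and at 4 in OCs. Of these peaks 1 in MPs, 2 after 36 h and 1 in OCs lay in the windows of several members. The genes were thus not counted from separate peaks, and the 4 genes after 36 h rest on 3 peaks. Over all protein-coding genes the shares with an MITF peak were 32.1% in MPs, 24% after 36 h and 28.9% in OCs. The members of the MITF lists all overlapped a PU.1 peak of the same time (9 of 9, 3 of 3 and 4 of 4), and in the whole lists 97.9%, 93.8% and 93.3% did. Of the PU.1 peaks at the 9 genes 7.89% overlapped an MITF peak in MPs (9 of 114, 95% Wilson interval 4.21% to 14.3%), 2.65% after 36 h (3 of 113, 0.907% to 7.52%) and 3.64% in OCs (4 of 110, 1.42% to 8.98%). The whole PU.1 lists gave 6.95%, 4.62% and 5.38%, and each of these lies inside the interval of the members. The order of the times rests on MITF peaks near the lowest listed score: with peaks of at least 2 times that score the shares were 1.3%, 2.82% and 0%, and 36 h was the highest.

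The MITF-bound sites were among the highest PU.1 sites. In MPs the 9 co-bound PU.1 peaks had a median score of 153.5 and the 105 others one of 25.6. After 36 h these medians were 121.2 and 26.6, and in OCs 125.5 and 27.1. All PU.1 peaks showed the same gap, with 148.4 against 22.2 in MPs. At 7 of the 9 genes the highest PU.1 site of the window had an MITF peak at some time, and Stat5a and Stat5b share the same site. At Lif it was the second highest site, and Socs1 had none. Among PU.1 peaks at least as high as the lowest co-bound member peak, a limit the members set, 52.9% of 17 member peaks in MPs overlapped MITF, beside 46.9% of all. The shares were 25% of 12 beside 53.1% after 36 h, and 19% of 21 beside 33% in OCs. Not every high PU.1 site had an MITF peak, as the highest Lif site shows.

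**Figure D2:**
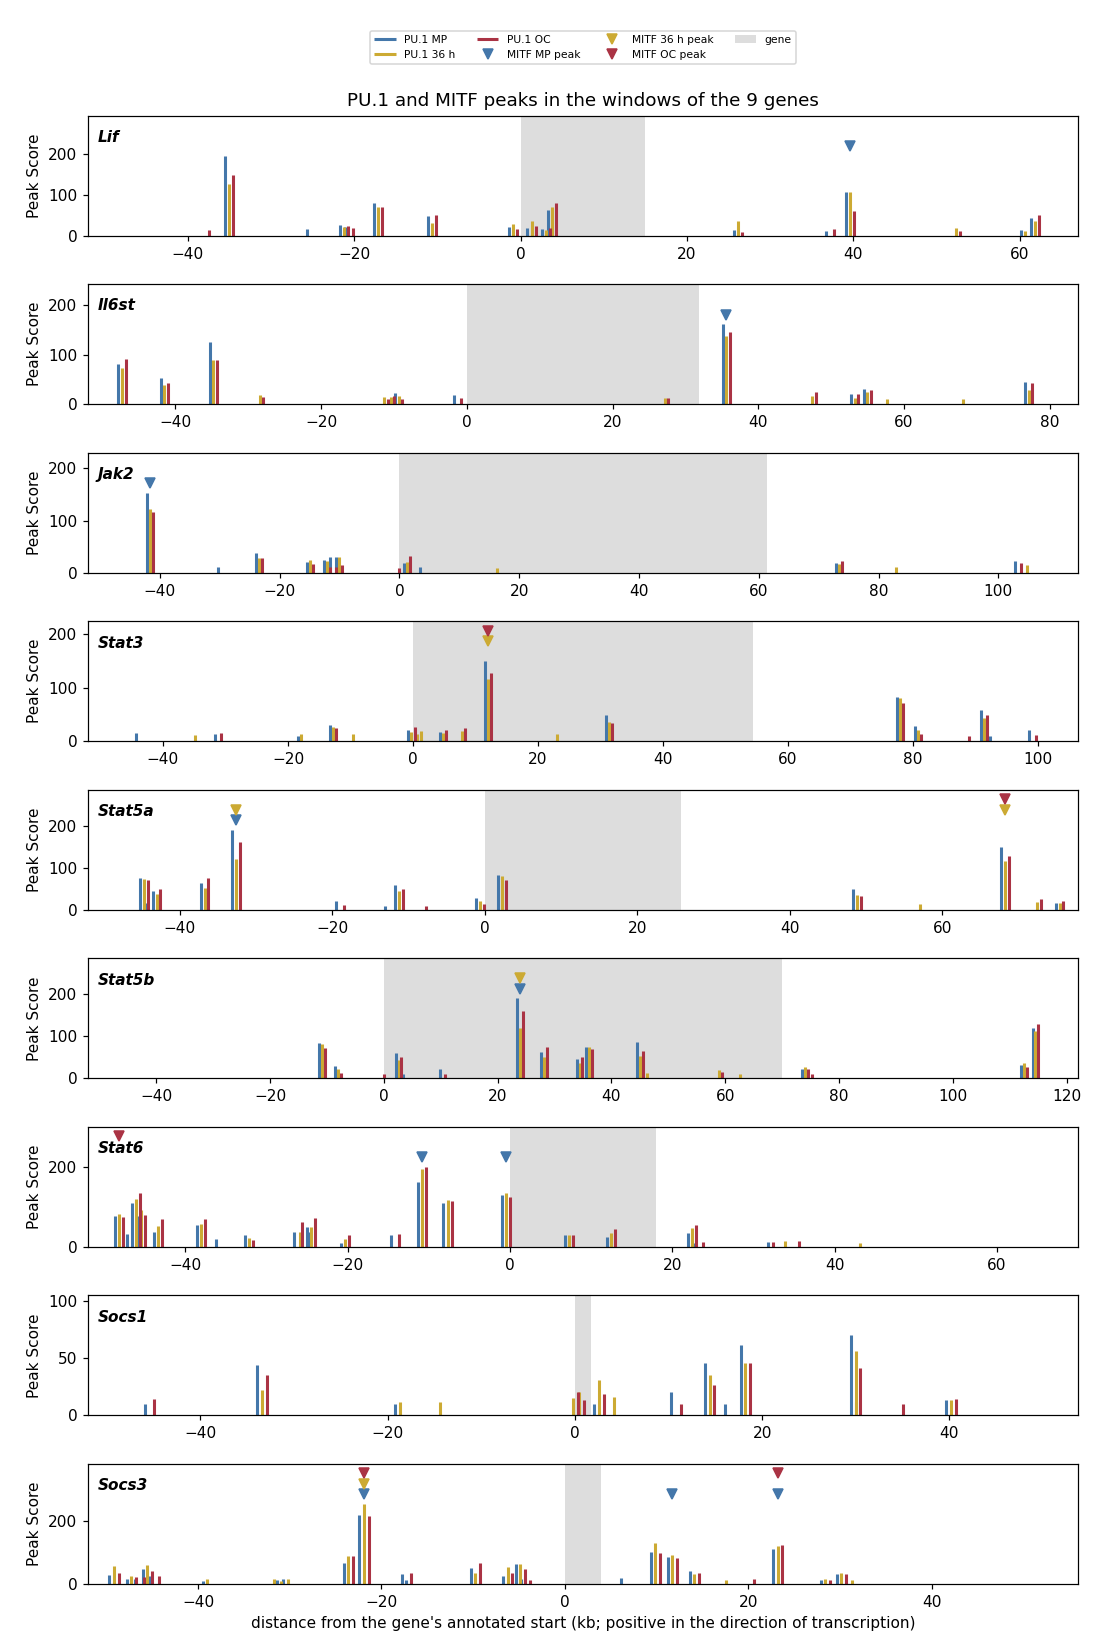
Peak Score of PU.1 sites (bars, one color per time, drawn side by side) against the distance from the start of each gene in kb, with the gene body in gray and MITF peaks as triangles colored by time; each panel has its own vertical scale. Triangles stand over the tallest bars at Il6st, Jak2, Stat3, Stat5b, Stat6 and Socs3, and no triangle is drawn at Socs1.

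Lif encodes leukemia inhibitory factor, a cytokine of the interleukin-6 family that signals through gp130. The gene spans chr11:4157560-4172517 and its window holds 17 PU.1 sites, 11 of them called in all 3 libraries. The highest lay between Lif and Gatsl3 at -35039 bp, with scores of 196.2 in MPs, 127.1 after 36 h and 149.8 in OCs. Within the gene, intronic sites lay at 1314 bp (18.8, 35.5 and 25.0), 3041 bp (17.1, 14.8 and 19.1) and 3771 bp (63.1, 69.5 and 80.8). The site nearest the start lay at -940 bp and scored 20.5 in MPs, 28.1 after 36 h and 16.2 in OCs. A segment that the study amplified by conventional ChIP, chr11:4156671-4156771, overlaps the peak of all 3 PU.1 lists there, and no MITF peak lies within 40322 bp of it.

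The MITF peak of Lif lay downstream, 39629 bp from the start. It was listed in MPs with 10.4 (10 tags, 95% Poisson interval 4.98 to 19.1) and in neither RANKL library. PU.1 at this site scored 107.5 in MPs, 107.9 after 36 h and 61.7 in OCs, so OCs stood apart from the other libraries. After division by the median ratio of all matched peaks the difference was -0.91 on the log2 scale from 36 h to OC (exact binomial test, p = 0.00102, adjusted p = 0.236 over all matched peaks) and -0.78 from MP to OC (adjusted p = 0.336), and neither was called. A weaker site at 26150 bp scored 15.4, 35.5 and 10.3 and was highest after 36 h (36 h to OC, -1.89 on the log2 scale, exact binomial test, adjusted p = 0.236). The window also covers Osm, the gene of oncostatin M, another gp130 cytokine, and Lif has the nearest coding start for 10 of the 17 sites.

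Il6st encodes gp130, the signal-transducing chain shared by the interleukin-6 family. Its window on chromosome 13 holds no other protein-coding start. PU.1 had 9 peaks in MPs, 15 after 36 h and 14 in OCs, the widest spread in peak number among the members. The extra sites were weak. There were 5 sites without an MP peak that were called in both RANKL libraries, with scores of 19.2 and 14.7 at -28432 bp, 14.8 and 10.3 at -11343 bp and 16.3 and 25.0 at 47438 bp among them. The nearest site to the start, at -1323 bp, scored 18.8 in MPs and 13.2 in OCs and was not called at 36 h.

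The highest Il6st site lay 35636 bp from the start, past the 3' end of the gene, with PU.1 at 162.1, 138.9 and 145.4. MITF was listed on it in MPs at 19.7 (19 tags, interval 11.9 to 30.8), the highest MITF score of the members in MPs, and in neither RANKL library. The lowest MITF scores listed after 36 h and in OCs were 9.7 and 9.1, and no test is possible where a list has no peak. Upstream sites at -34810 bp (126.2, 90.2 and 89.6) and -47323 bp (81.9, 73.9 and 91.0) had PU.1 alone.

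Jak2 encodes the Janus kinase that serves gp130 and many hematopoietic cytokine receptors. PU.1 had 11, 10 and 10 peaks here, or 6.82, 6.2 and 6.2 per 100 kb. This was low among the members but above the medians of all genes (4.72, 4.64 and 4.85). Of its 15 sites 7 were called at all 3 times. A single site stood out. It lay in intergenic sequence at -41730 bp and scored 153.5 in MPs, 122.7 after 36 h and 116.0 in OCs, while the next highest site reached 37.5. MITF was listed there in MPs at 11.4 (11 tags, interval 5.7 to 20.4).

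All 6 upstream sites of Jak2 with a peak in both MPs and OCs had a lower score in OCs. The 3 with the largest differences lie close together. The site at -12129 bp scored 25.6, 22.2 and 11.7, that at -11139 bp 30.7 in MPs and 11.7 in OCs with no peak at 36 h, and that at -10134 bp 30.7, 31.0 and 14.7. Their MP to OC differences were -1.10, -1.36 and -1.04 on the log2 scale, and none was called (exact binomial test, adjusted p = 0.764, 0.535 and 0.739). At the start, a peak of 10.3 at -566 bp was listed only in OCs, and the intronic site at 1214 bp scored 18.8, 20.7 and 32.3.

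The STAT genes Stat3, Stat5a and Stat5b lie next to each other on chromosome 11, and their windows overlap. Of their PU.1 peaks 13 in MPs, 12 after 36 h and 13 in OCs fell in several windows. Stat3 encodes the main STAT of gp130 cytokines. Its highest site lay in an intron at 11958 bp, with PU.1 at 150.1 in MPs, 116.8 after 36 h and 127.8 in OCs. MITF was not listed there in MPs and was listed at 34.1 after 36 h (35 tags, interval 23.7 to 47.4) and at 11.4 in OCs (10 tags, 5.48 to 21.0). The segment of Stat3 that the study amplified, chr11:100788783-100788864, overlaps all of these peaks.

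The 36 h score of MITF at Stat3 was the highest MITF score among the members. Its reading depends on the scaling, because matched MITF peaks were higher after 36 h across the genome: the median ratio of tags from 36 h to OC was 0.4727, while the implied library sizes give 0.852. Against the median ratio the Stat3 difference was -0.73 on the log2 scale (exact binomial test, adjusted p = 0.438), and against the library sizes it was -1.58 (adjusted p = 0.00495). The 36 h list also holds MITF peaks of 150 to 1387 bp, and the other MITF lists hold peaks of 150 bp only. The Stat3 peak itself spans chr11:100788825-100788994 after 36 h and chr11:100788809-100788959 in OCs, near the lower end of that range. The part of peak width in the score was not tested.

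At the start of Stat3, the site at -257 bp scored 20.5, 17.7 and 27.9. Weak intronic sites at 706 bp (14.8) and 1217 bp (19.2) were listed only after 36 h, and one at 7764 bp was listed after 36 h and in OCs (19.2 and 25.0). Only 8 of its 20 sites were called at all 3 times.

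Stat5a and Stat5b encode a closely related pair of STATs that act downstream of receptors such as that of GM-CSF. The strongest site of both windows lay in an intron of Stat5b, 23935 bp from its start, with PU.1 at 191.0 in MPs, 121.2 after 36 h and 161.5 in OCs. The MP to 36 h difference was -0.53 on the log2 scale and was not called (exact binomial test, adjusted p = 0.234). MITF was listed at 11.4 in MPs and 11.7 after 36 h (11 and 12 tags) and not in OCs. Stat5b carried a row of further intronic PU.1 sites without MITF, at 28098 bp (63.1, 51.7 and 74.9), 36021 bp (75.1, 73.9 and 70.5) and 45076 bp (87.0, 53.2 and 64.6). In all 12 of its 20 sites lay in the gene.

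Stat5a has the nearest coding start for only 2 of the 16 sites in its window. It had an intronic site of its own at 2240 bp, which scored 83.6, 81.3 and 72.0. Its site at -602 bp scored 29.0 in MPs, 22.2 after 36 h and 13.2 in OCs. Near the start of Stat5b a peak of 10.3 at -399 bp was listed in OCs alone, at the lowest score of that list.

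Stat6 encodes the STAT of interleukin-4 and interleukin-13, cytokines that oppose osteoclast formation. It lies on chromosome 10 beside Lrp1 and Nab2, and 26 PU.1 sites fell in its window, 14 of them called at all 3 times. Its summed PU.1 score was 1119 in MPs, 1124 after 36 h and 1256 in OCs, the highest of the 9 genes in MPs and OCs. The highest site, at -10869 bp, scored 163.8, 196.6 and 201.2, and the site that covers the start region, at -457 bp, scored 129.6, 136.0 and 124.8. This made Stat6 the one member with a PU.1 score above 100 within 1 kb of its start. At -7694 bp PU.1 alone scored 110.9, 116.8 and 114.5.

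MITF was listed at the -10869 bp and -457 bp sites of Stat6 in MPs alone, at 9.3 and 10.4 (9 and 10 tags). In OCs MITF was listed at another site, -48222 bp in an intron of Lrp1, at 11.4 (10 tags), where PU.1 scored 78.5, 82.8 and 74.9. The difference in place rests on 9 to 10 tags at each site, near the lowest score each list can hold. Sites in and near Lrp1 had the largest MP to OC differences of this window, with 10.2, 20.7 and 29.4 at -20318 bp (1.54 on the log2 scale, exact binomial test, adjusted p = 0.44) and 37.5, 53.2 and 69.0 at -43341 bp (0.90, adjusted p = 0.429), and neither was called. Lrp1 encodes a lipoprotein receptor, and 5 of the 26 sites lie nearest to the start of Stat6 itself.

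Socs1 encodes an inhibitor that binds Janus kinases and is known for damping interferon signaling. It had 11 PU.1 peaks in each library, and it was the member with no MITF peak and with the lowest maximum, 69.9 at 29991 bp in MPs (56.2 after 36 h and 41.1 in OCs; MP to OC, -0.74 on the log2 scale, exact binomial test, adjusted p = 0.59). Around its start PU.1 was listed only in RANKL-treated cells at -150 bp (14.8 after 36 h, 20.6 in OCs) and at 451 bp (20.7 and 13.2). The site at 2581 bp, whose sequence is printed above, scored 10.2 in MPs, 31.0 after 36 h and 19.1 in OCs. From MP to 36 h this was 1.72 on the log2 scale, the largest MP to 36 h difference of the members, with an adjusted p of 0.173. At these 3 sites MPs were lowest or had no listed peak. A missing peak carries no score, so it sets no upper limit on binding. The scores at -150 bp and 451 bp were at most 20.7 in any list, so this order rests on weak peaks. The 4 distal sites over 40 at -33431 bp (44.4, 22.2 and 35.2), 14404 bp (46.1, 35.5 and 26.4), 18207 bp (61.4, 45.8 and 45.5) and 29991 bp were highest in MPs. Among the differences that could be tested none was called.

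Socs3 encodes the inhibitor that binds gp130 and blocks its Janus kinases. It had 23 PU.1 peaks in MPs, 21 after 36 h and 19 in OCs (Stat6 also had 19 in OCs), and 3, 1 and 2 MITF peaks, the largest sum over the 3 MITF lists. No PU.1 site lay in the short gene itself, and the nearest to the start was at -4301 bp (17.1, 19.2 and 11.7). The sites lay upstream, in intergenic sequence and in introns and exons of Pgs1 (a phospholipid synthesis gene), and downstream in intergenic sequence. The highest PU.1 score of all members was at -21906 bp in an intron of Pgs1, with 218.3 in MPs, 255.7 after 36 h and 217.3 in OCs. It was also the 1 site of the 11 with MITF in all 3 lists, at 16.6 (interval 9.5 to 27.0), 20.4 (12.7 to 31.2) and 10.3 (4.7 to 19.5).

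Downstream of Socs3, the site at 23229 bp had PU.1 at 110.9, 121.2 and 123.3 and MITF at 11.4 in MPs and 11.4 in OCs. The site at 11701 bp had PU.1 at 85.3, 91.6 and 83.7 and MITF in MPs alone, at 9.3. A neighbor at 9852 bp with higher PU.1 scores (102.3, 131.6 and 98.4) had no MITF peak in any list. Upstream, PU.1 was highest after 36 h at -6249 bp (25.6, 53.2 and 35.2) and at -49159 bp (27.3, 56.2 and 35.2), with MP to 36 h differences of 1.18 and 1.17 on the log2 scale and adjusted p-values of 0.184 and 0.166. The latter was the lowest adjusted p of all member pairs, and it was not called.

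**Figure D3:**
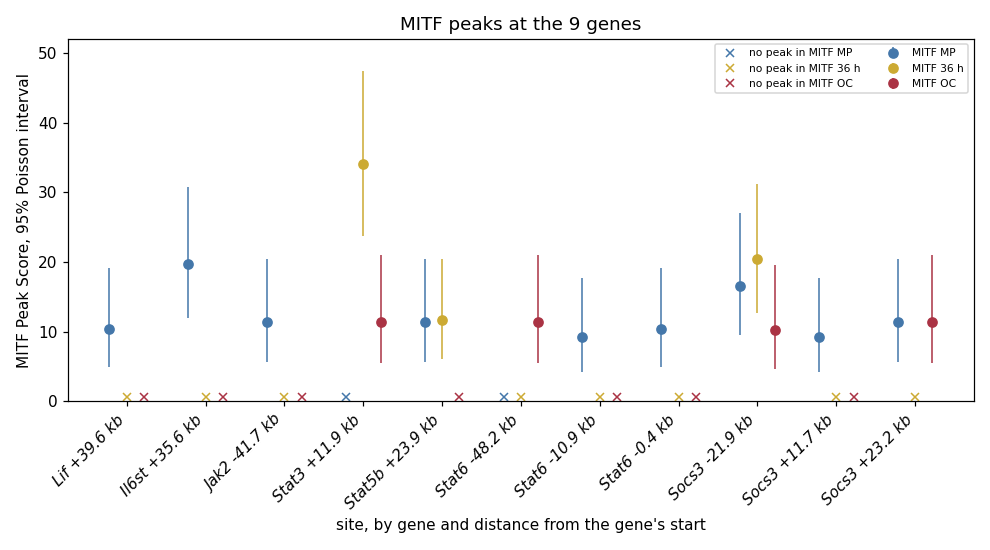
MITF Peak Score with its 95% Poisson interval at the 11 MITF sites of the 9 genes, ordered by gene, in MPs, after 36 h of RANKL and in OCs; a cross near the axis marks a list without a peak. There are 10 sites with at least 1 cross, Socs3 at -21906 bp has none, and Stat3 after 36 h (34.1) is the highest.

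PU.1 at the 9 genes was largely present before RANKL. Of its OC peaks 84.5% overlapped an MP peak (93 of 110, 95% Wilson interval 76.6% to 90.1%), beside 78% of all PU.1 OC peaks, and of its MP peaks 81.6% overlapped an OC peak (interval 73.5% to 87.6%), beside 78.8% of all. The background lies inside both intervals. MITF overlapped less between these times, with 2 of its 4 OC peaks on an MP peak (50%, interval 15% to 85%, beside 64% of all) and 2 of its 9 MP peaks on an OC peak (22.2%, interval 6.32% to 54.7%, beside 52.5% of all).

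The peaks joined into 151 PU.1 sites, and 77 of them (51%) were called at all 3 times, beside 50.5% of all PU.1 sites of the genome. Of the others, 20 were called only after 36 h, 15 only in MPs, 7 only in OCs, 16 in MPs and OCs, 10 in both RANKL libraries and 6 in MPs and after 36 h. Presence went with height. All 14 sites with a highest score from 40 to 60 and 34 of the 35 sites from 60 up were called at each time, against 4 of 59 under 20. Over the genome the shares were 89.6% from 40 to 60, 97.3% from 60 up and 13.8% under 20, so presence went with height there too. From 20 to 40 it was 58.1% of the 43 member sites, beside 68.4% over the genome. The exception was a site in an intron of Lrp1 at -26127 bp from Stat6, with 37.5 in MPs and 63.1 in OCs, where the 36 h peak of 37.0 was listed at -25852 bp and did not overlap. Sites listed at only 1 time had highest scores of at most 37.5, against 255.7 for the highest site called at all 3 times. The 36 h peak at -25852 bp is 1 of them, so a site listed at 1 time can lie beside a site listed at others.

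**Figure D4:**
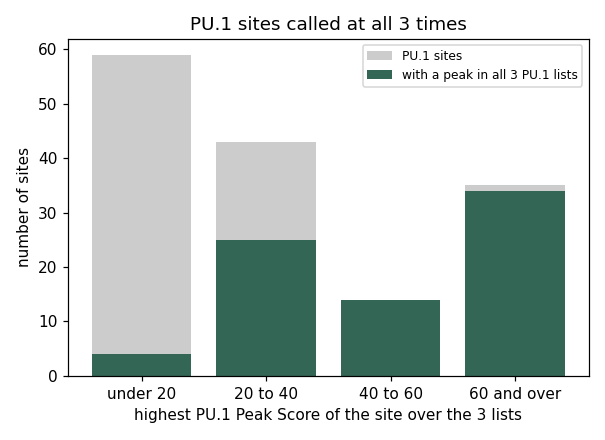
Number of PU.1 sites at the 9 genes by the highest Peak Score over the 3 PU.1 lists (gray) and the number of them with a peak in all 3 lists (green). The green part grows from 4 of 59 sites under 20 to 34 of 35 sites at 60 and over.

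No matched peak at the 9 genes was called changed in any of the 6 comparisons, where a call needs an adjusted p under 0.05 and at least a 2-fold difference. For PU.1, 83 pairs were tested from MP to 36 h, 87 from 36 h to OC and 93 from MP to OC, and over all matched PU.1 peaks 1.05%, 0.0707% and 0.156% were called. At an unadjusted p under 0.05 the exact binomial test gave 10, 7 and 6 member pairs, or 12%, 8.05% and 6.45%, beside 10.9%, 6.45% and 7.84% of all pairs. The median log2 differences were 0.09, -0.12 and 0.00. The 2 peaks of a member pair held a median of 45 to 51 tags together. At the p-value these comparisons required, an exactly 2-fold rise would have been called from 112, 162 and 148 tags, and 67, 76 and 82 member pairs had fewer, so such a difference was not detectable there at this depth. For MITF 2 member pairs could be tested in each comparison and 0 had an unadjusted p under 0.05, while 15.2%, 9.66% and 0% of all MITF pairs were called from MP to 36 h, from 36 h to OC and from MP to OC.

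**Figure D5:**
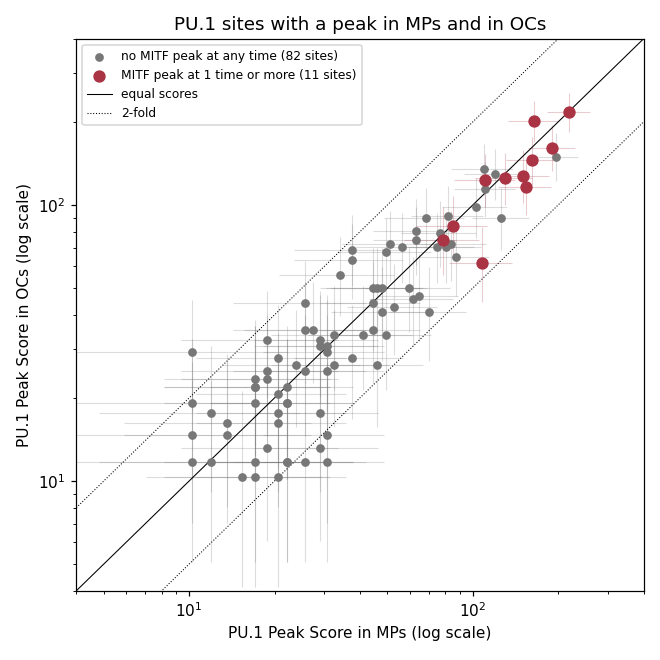
PU.1 Peak Score in OCs against that in MPs, both on log scales with 95% Poisson intervals, for the 93 sites of the 9 genes with a peak at both times; larger red points are the 11 sites with MITF at 1 time or more, and dotted lines mark a 2-fold difference. Most points lie between the dotted lines, the red ones at the upper end, and the red point lowest against the diagonal is the Lif site (107.5 and 61.7).

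Of the 151 sites 72 were intergenic, 64 lay in introns, 7 in untranslated exons, 4 in coding exons and 4 in exons of non-coding transcripts. Of all sites 9 lay within 1 kb of the start of a member. Their PU.1 scores stayed under 30 apart from the Stat6 site. The sequence within 100 bp of the PU.1 OC centers was searched on both strands. GGAAGT occurred in 60% of the 110 member peaks and in 62.9% of all, and GAGGAAGT, which contains it, in 23.6% and 22.8%. The E-box cores CATGTG and CACGTG occurred in 13.6% and 0.909% of member peaks, beside 14.4% and 3.29% of all. The STAT motif TTCNNNGAA occurred in 8.18%, beside 6.61% of all, and its narrower form TTCCNGGAA in 0% (0 of 110, interval up to 3.37%), beside 0.778%. A match is a run of letters and not a shown binding site.

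Other genes of the pathway were read with the same window from a list of 46. PU.1 had a peak at 46 of 46 in each list (83.8%, 83.3% and 83.8% of all genes), with medians of 8.49, 8.5 and 8.13 peaks per 100 kb, and MITF at 27, 21 and 22 of them (58.7%, 45.7% and 47.8%, beside 32.1%, 24% and 28.9% of all genes). In OCs the densest were receptor genes, Il10ra (19.9 peaks per 100 kb) and Il10rb (18.4), the chains of the interleukin-10 receptor, Ifnar1 (19.6) and Ifnar2 (17.7) of the type I interferon receptor, and Ifngr1 and Ifngr2 (15.2 each) of the interferon gamma receptor. Several of these lie in 1 cluster, so their windows share peaks. MITF was listed in all 3 libraries at the kinase gene Jak1, the inhibitor and phosphatase genes Pias1, Pias4, Ptpn1, Ptpn6 and Ptpn11, the cytokine genes Osm and Il11, and the receptor genes Lifr, Il6ra, Ifnar1, Ifnar2, Ifngr2, Il7r, Il10ra, Il10rb, Csf2ra and Csf2rb. Socs3 and Stat5a were the members with MITF in all 3 lists, and at Stat5a this came from both neighboring genes' introns. Lifr, the receptor chain that pairs with gp130 for Lif, had 3, 2 and 2 MITF peaks, and Osm, whose window overlaps that of Lif, had 2, 1 and 1 where Lif had 1, 0 and 0.

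The genes most like the members were taken as those with the smallest Euclidean distance in log2(1 + summed score) over the 6 libraries, for the 3 members with the most MITF peaks. For Socs3 they were Ppp1r12b (0.26), 5031414D18Rik (0.36) and Vps45 (0.41), for Stat5a Slc16a10 (0.22), Ascc2 (0.43) and 9130230L23Rik (0.52), and for Stat6 Acvr1b (0.37), Usp6nl (0.44) and Blm (0.46). Ppp1r12b had 21, 27 and 22 PU.1 peaks and 3, 2 and 2 MITF peaks.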

How the data were processed

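PU.1 and MITF binding was measured by ChIP-Seq in 6 libraries and IgG in 1, which makes 7 libraries with 1 per condition and no replicate. Per the labels, the reads passed CASAVA 1.8, were aligned by Bowtie2 (build mm9) and were turned into peaks by HOMER, and the authors deposited a peak list for each library. The versions of Bowtie2 and HOMER and the options used are not given in the sources used here. The deposited Peak Score is a signal, the tag number of each peak after HOMER brings libraries to the same size.

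Within each list every score lay within 0.0501 of a whole number of equal steps, and 1 step was taken as 1 tag. PU.1 peaks are mostly 150 bp wide, and 190 bp in the 36 h list, which bears on scores set side by side. Peaks were given to a gene of the GENCODE annotation of the NCBIM37 assembly (mm9) by their center, within 50 kb, and overlaps needed 1 bp. Overlapping peaks of 1 factor formed a site. The tags of matched peaks were compared by a two-sided exact binomial test, with the expected ratio set to the median over the genome, and p-values were adjusted by Benjamini-Hochberg over all matched pairs of the 2 libraries. Shares have 95% Wilson intervals and scores exact 95% Poisson intervals. The pair test was tried on simulated data, with changes larger than 2-fold in pairs that held more tags than most member pairs. It does not cover smaller changes or pairs with fewer tags. Python 3.11.15, numpy 2.4.6, scipy 1.17.1, pandas 2.3.3 and matplotlib 3.10.9 were used.

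At each member the highest PU.1 site, every site with MITF and the site nearest the start were named. Other sites named were chosen after their values were seen. The alternatives changed the window, the score minimum, the matching of peaks and the ratio. The members, lists and tests were chosen with earlier results of these data known. IgG peaks were used as a background only. A further gene of the list of other cells is not reported here.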

Additional observations from a re-analysis of the deposited data

How the results depend on the processing

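Of 82 values recomputed under the alternatives for 17 results, 60 stayed near the reported ones. Peak numbers followed the window. With 10 kb the PU.1 lists gave 41, 45 and 44 peaks in MPs, after 36 h and in OCs, and MITF 4 in MPs and 1 in OCs. With 100 kb they gave 182, 183 and 188 PU.1 and 19, 11 and 14 MITF peaks. With only the peaks whose nearest coding start is a member they gave 63, 69 and 68 PU.1 peaks and 2 MITF peaks in OCs. At a score of at least 2 times the lowest of the list, 71 PU.1 peaks remained after 36 h and 72 in OCs, and MITF had 1 peak in MPs, 2 after 36 h and 0 in OCs, so the share of PU.1 peaks with MITF was 1.3%, 2.82% and 0%, with 36 h in place of MPs as the highest. The MITF peaks of the 9 genes thus lie near the limit of their lists, apart from Il6st in MPs and Stat3 and Socs3 after 36 h. The count of matched MITF peaks called changed from 36 h to OC was 1, at Stat3, with the ratio taken from library sizes. The other counts of called pairs were 0 under the alternatives tried, with at most 2 MITF pairs to test. The share of MITF OC peaks on an MITF MP peak could not be computed at the higher score minimum, since no MITF OC peak was left. Removing peaks that overlap IgG could alter no count at these genes, as IgG had 0 peaks in their windows. No member pair had an adjusted p under 0.05 by the exact binomial test, so dropping the fold limit could add no call either. The values of both alternatives are part of the 60. No paired analysis was possible because each condition has 1 library, and for the same reason no replicate could be left out. Depth limits these data to sites with at least 6 to 7 tags for PU.1 and 8 to 10 for MITF.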
